A study of Mus musculus with 5 samples.

Results

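Cholesterol and fatty acid synthesis was represented by 33 genes of the 18783 in the authors' deposited expression table, picked by symbol from a list of the pathway's enzymes and their control proteins, and all 33 were found. Sterol enzymes made up 18 of them, proteins that control or carry sterols 6, and enzymes that make, desaturate or elongate fatty acids 9. The rule used gene symbols and no measured value, although the list was drawn up with earlier results of these data known.

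Cells build cholesterol from acetyl-CoA through mevalonate, farnesyl diphosphate, squalene and lanosterol, and the same acetyl-CoA feeds fatty acid synthesis. Both routes are switched on by SREBP transcription factors, encoded by Srebf1 and Srebf2, which the escort protein SCAP carries from the endoplasmic reticulum to the Golgi for cleavage when membrane sterol is low. INSIG proteins hold that complex back when sterol is plentiful. In brain, cholesterol is made locally because plasma lipoproteins hardly cross the blood-brain barrier, and astrocytes are a main source.

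The libraries came from primary astrocyte cultures of newborn C57BL/6 mice, grown in medium with horse and fetal bovine serum and harvested on day 12 in vitro. Control cultures (2 libraries) were naive, Aβ cultures (2 libraries) received 1 µM amyloid-β peptide from day 7 for 5 days, and the Aβ+DFMO culture (1 library) received 1 µM Aβ together with 50 µM DFMO, an irreversible inhibitor of ornithine decarboxylase, over the same time. No group received DFMO without Aβ. The question was what Aβ changes in these cells and what DFMO changes in Aβ-treated cells. The labels do not tell whether replicate libraries derive from different cultures, so p-values may reflect technical spread only.

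The Aβ+DFMO library had 4825677 reads, whereas the authors' average over the libraries of their read table, that library included, was 51190572, or 10.6 times as many. Values per gene were the authors' normalized group means, without values per library. The group mean of Aβ+DFMO is a single library, and its calls assume that it varies like the other libraries. One read in that library was worth about 7.45 normalized units, which puts the members between about 19 reads (Tm7sf2) and 5766 reads (Scd2). A call required an adjusted p under 0.05 by DESeq2, as the authors deposited it. Standard errors are those implied by the deposited p-value and log2 ratio, and intervals are 95% intervals from them.

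All 33 members were well expressed, with Aβ means from 318 normalized units for Tm7sf2 to 60857 for Scd2. Divided by transcript length, the Aβ mean was highest for Scd2, a stearoyl-CoA desaturase abundant in brain, at 11156 units per kilobase. The polyunsaturated fatty acid desaturase Fads2 followed at 4595 units per kilobase and the HMG-CoA synthase Hmgcs1 at 4081. Lowest per kilobase were Acaca, the acetyl-CoA carboxylase, at 137 units, and Mvd, the decarboxylase that yields isopentenyl diphosphate, at 191. The group means by gene show Control and Aβ nearly on top of each other in most rows and Aβ+DFMO to the left of them in many.

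**Figure D1:**
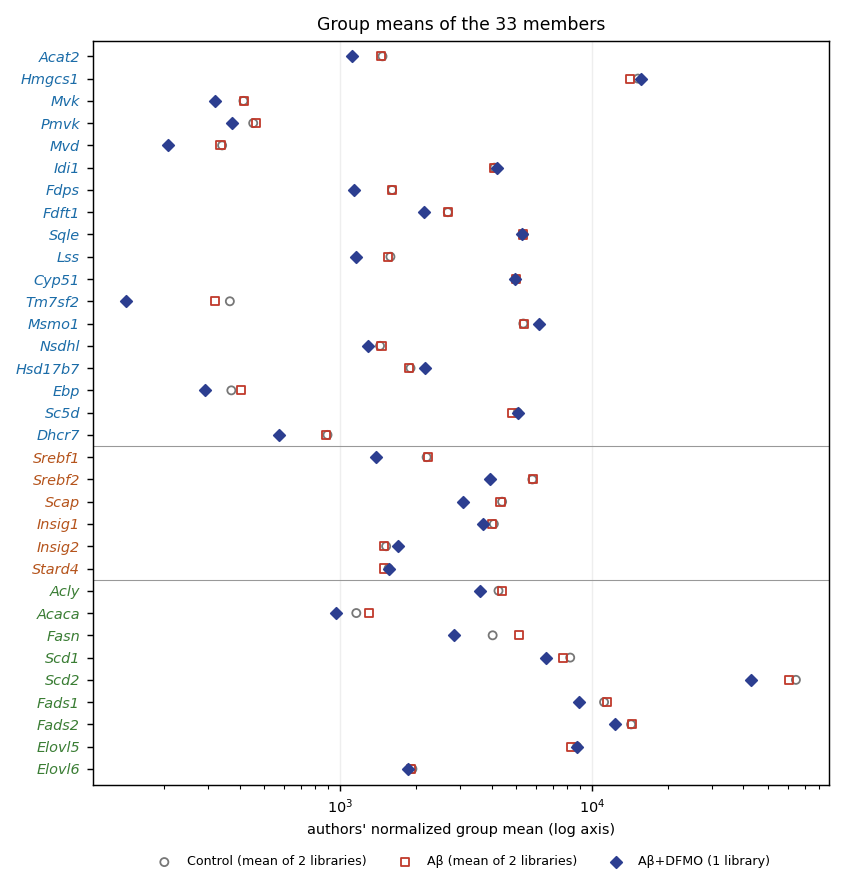
Authors' normalized group mean (x axis, log scale) of each of the 33 members (y axis) in Control, Aβ and Aβ+DFMO, with sterol enzymes at the top, regulators and the sterol carrier in the middle and fatty acid enzymes at the bottom. Points should be compared within a row, since the values are not divided by length. Tm7sf2 stands at 366, 318 and 142 units, and Srebf2 at 5808, 5862 and 3942.

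Aβ alone left the lipid synthesis genes close to Control. None of the 33 members was called by the authors' DESeq2 test, where 0.287% of all genes were, and none reached an unadjusted p under 0.05, where 324 of all 18783 genes did. Of the members, 13 lay above 0 and 20 below, with a median log2 ratio of −0.01 beside 0.00 for all genes. The log2 ratio was within 0.1 of 0 for 28 members. Genes whose Aβ mean reached 200 lay close to 0 as well, with quartiles of −0.05 and 0.05. These counts therefore do not set the members apart from other genes. For 31 members the interval excluded a change of 0.5 on the log2 scale in either direction, and the exceptions were Tm7sf2 and Fasn.

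Srebf2 averaged 5808 units in Control and 5862 in Aβ, a log2 ratio of 0.01 in the authors' deposited table with an interval from −0.14 to 0.17. For Srebf1 the means were 2209 and 2239 (log2 ratio 0.02 in the authors' deposited table, interval from −0.18 to 0.22). The smallest unadjusted p-value of the members, 0.139 in the authors' deposited table, belonged to Hmgcs1, which makes the precursor of mevalonate and had means of 15247 in Control and 14136 in Aβ. The interval of each of these 3 genes included 0.

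Fatty acid synthase, Fasn, had the largest log2 ratio of the members in Aβ, 0.35 in the authors' deposited table, with means of 4040 in Control and 5141 in Aβ. Its interval ran from −0.23 to 0.92. Its implied standard error was 0.292, whereas the median over the 726 genes of like level (an Aβ mean of at least 0.8 of that of Fasn, and Fasn at least 0.8 of theirs) was 0.0834. Acaca, which supplies malonyl-CoA to Fasn, had a log2 ratio of 0.16 in the authors' deposited table and an implied standard error of 0.140 beside 0.114 for genes of like level. Neither passed the test.

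In the Aβ+DFMO library 7 members were lower than in Aβ and none was higher. They were the regulators Srebf1, Srebf2 and Scap, the sterol enzymes Fdps and Tm7sf2, and the fatty acid desaturases Scd2 and Fads1. In the same comparison 9.18% of all genes were called, with 5.18% of all genes lower and 4.0% higher. Among the genes whose Aβ mean reached 200, a level that all members had, 14.3% were called, 8.17% lower and 6.15% higher, so the members' 7 of 33 stand beside that higher background. The members' log2 ratios ran from −1.17 to 0.21 with a median of −0.31, beside −0.02 for genes at that level. At an unadjusted p under 0.05 there were 16 of 33 members, all 16 of them lower, beside 3931 of all 18783 genes and 3664 of the 11780 whose Aβ mean reached 200, in either direction. This comparison shares its Aβ libraries with the comparison of Aβ against Control.

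**Figure D2:**
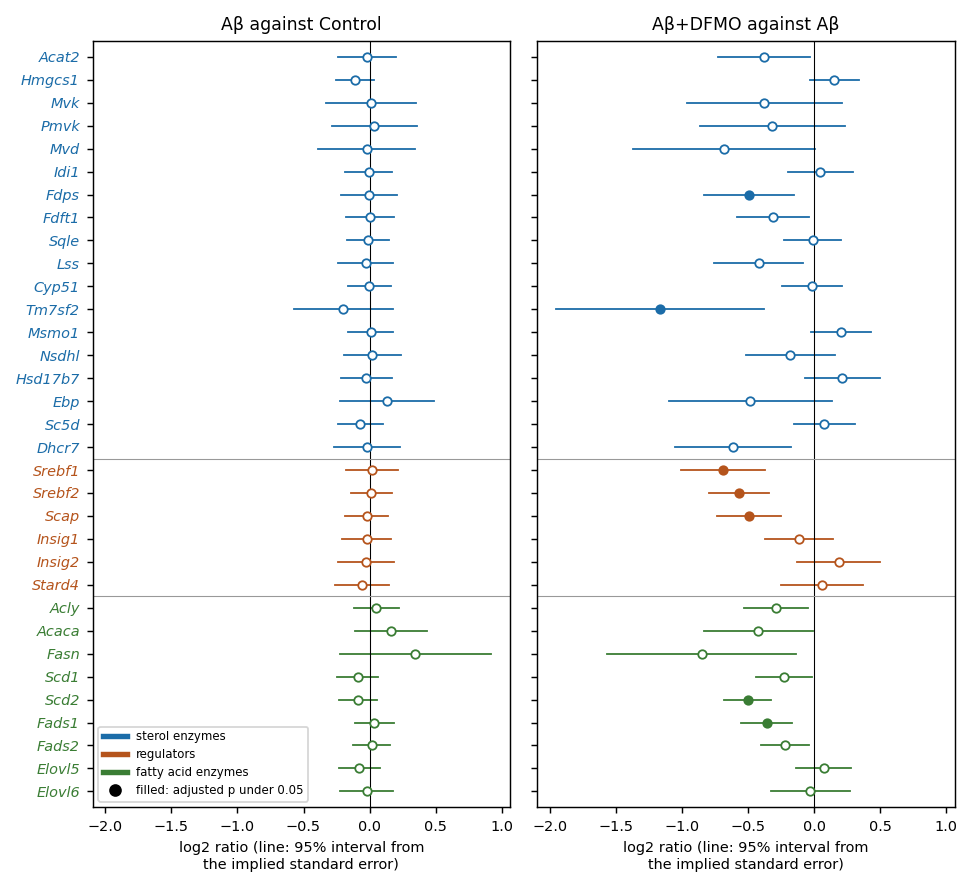
Log2 ratio (x axis) of each member (y axis) for Aβ against Control (left) and Aβ+DFMO against Aβ (right), with lines for the 95% interval from the implied standard error and filled points for an adjusted p under 0.05. On the left all 33 points are open and 28 lie within 0.1 of 0, and on the right 7 points are filled, all below 0.

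The members' log2 ratios in Aβ+DFMO followed the GC content of their transcripts, as those of all genes did. Over the 33 members, which share their libraries, GC content and log2 ratio gave a Spearman's rho of −0.84 and a Pearson's r of −0.81. Over 11660 genes whose Aβ mean reached 200 the values were −0.71 and −0.68. For Aβ against Control the members gave 0.41 and 0.28, beside 0.12 and 0.09 over the 11660 genes. With a limit of 50% chosen after the values were seen, all 16 members at or above it had a log2 ratio under 0 and 6 of them were called, whereas of the 17 below it 9 lay under 0 and 1, Scd2, was called. Genes at large split the same way. In 20 GC bins of the 11660 genes, medians ran from 0.38 at 38.6% to 0.01 at 49.2%. Above the limit they ran from −0.05 at 50.1% to −0.60 at 60.8%. The share of all genes called on each side was not computed, so these counts do not set the members apart.

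The GC difference is visible in the coding sequence itself. The stretches below are the middle 120 bases of the longest coding exon of 3 members, with G and C in capitals, from the GENCODE transcripts on GRCm38. They are Scap, which had the highest transcript GC content of the called members (59.1%), Scd2, which had the lowest of them (49.5%), and Idi1, an isomerase of the sterol branch that was not called and had the lowest GC content of all members (41.9%).
Scap: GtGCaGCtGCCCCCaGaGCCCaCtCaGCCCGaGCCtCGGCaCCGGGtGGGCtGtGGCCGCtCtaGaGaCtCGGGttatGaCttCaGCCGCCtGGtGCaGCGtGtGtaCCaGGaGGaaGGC
Scd2: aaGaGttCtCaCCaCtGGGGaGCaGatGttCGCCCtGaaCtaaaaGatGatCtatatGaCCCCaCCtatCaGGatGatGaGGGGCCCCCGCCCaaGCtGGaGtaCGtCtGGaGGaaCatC
Idi1: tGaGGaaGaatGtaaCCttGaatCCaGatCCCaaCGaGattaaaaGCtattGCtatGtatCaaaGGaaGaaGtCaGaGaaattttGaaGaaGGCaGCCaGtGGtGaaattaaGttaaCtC
The Scap stretch lies at chr9:110381168-110381287 on the plus strand in exon 17 of 23 and is 67.5% G and C. The Scd2 stretch lies at chr19:44294985-44295104 on the plus strand in exon 2 of 6 and is 53.3% G and C. The Idi1 stretch lies at chr13:8890415-8890534 on the plus strand in exon 5 of 5 and is 37.5% G and C.

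Taking out the GC trend of all genes left 1 called member, Scd2. In that setting 1.52% of all genes with a GC value were called, 0.704% lower and 0.813% higher. The median log2 ratio of the members moved from −0.31 to −0.17, and 26 of 33 still lay under 0. Spearman's rho with GC content was then −0.07, a value that the subtraction itself pushes towards 0. Each of the 6 other called members is therefore given below with its value in that setting beside the deposited value. Whether the GC trend arose in the cells or in library preparation, sequencing or processing was not tested.

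**Figure D3:**
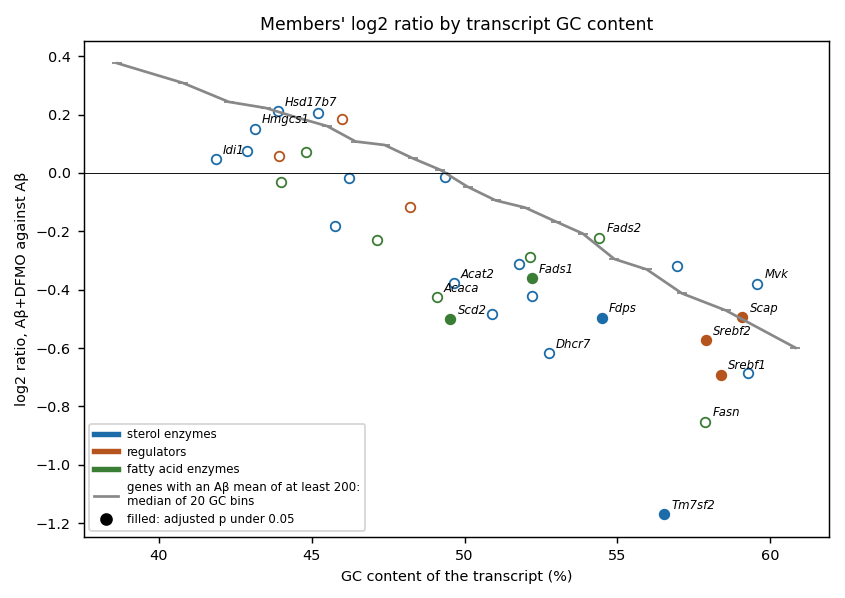
Log2 ratio of Aβ+DFMO against Aβ (y axis) by GC content of the transcript in percent (x axis) for the 33 members, with filled points for an adjusted p under 0.05 and a grey line for the median of genes whose Aβ mean reached 200, in 20 GC bins. The line falls from 0.38 at a GC content of 38.6% to −0.60 at 60.8%, Scap lies on it at −0.49, and Scd2 lies below it at −0.50.

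Among the regulators, the 2 SREBP genes and their escort fell together and the retention proteins did not pass. Srebf2, the regulator mainly of sterol genes, stood at 5808 in Control, 5862 in Aβ and 3942 in Aβ+DFMO. It was the second lowest of the regulators by log2 ratio against Aβ, −0.57 in the authors' deposited table (implied standard error 0.115, adjusted p = 6.8e-05). Srebf1, the regulator mainly of fatty acid genes, went from 2239 in Aβ to 1386, a log2 ratio of −0.69 in the authors' deposited table (implied standard error 0.161, adjusted p = 0.000809). Isoforms of Srebf1 are not separated in the table. Scap fell from 4340 to 3081, 71.0% of its Aβ mean (log2 ratio −0.49 in the authors' deposited table, implied standard error 0.122, adjusted p = 0.00199).

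None of these 3 passed once the GC trend was subtracted. Srebf1 then had a log2 ratio of −0.23 (adjusted p = 0.810), Srebf2 of −0.13 (adjusted p = 0.903) and Scap of 0.01 (adjusted p = 0.997), each recomputed from the authors' DESeq2 values. Their transcripts are 57.9% to 59.1% G and C, and genes of that content had a trend value between −0.50 and −0.44.

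Insig1, a retention protein that is itself a sterol-responsive gene, had 4023 in Aβ and 3711 in Aβ+DFMO (log2 ratio −0.12 in the authors' deposited table, interval from −0.38 to 0.14). Insig2 had 1496 and 1699 (log2 ratio 0.18 in the authors' deposited table, interval from −0.13 to 0.50). Stard4, a soluble sterol carrier, had 1503 and 1565 (0.06 in the authors' deposited table, interval from −0.25 to 0.37). The GC content of these 3 transcripts was 43.9% to 48.2%. Whether the difference between the SREBP genes and the Insig genes exceeds its error was not tested.

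In the sterol branch 2 of 18 enzymes fell and none rose, a share near the 8.17% called lower among genes whose Aβ mean reached 200. The branch median log2 ratio was −0.31 as deposited and −0.19 with the GC trend taken out. Tm7sf2, a sterol reductase, had the largest fall of all members. It stood at 366 in Control, 318 in Aβ and 142 in Aβ+DFMO, 44.5% of its Aβ mean (log2 ratio −1.17 in the authors' deposited table, implied standard error 0.400, adjusted p = 0.0415). Its Aβ+DFMO value rests on 19 reads, and counting error alone allows 85.2 to 221 units (exact Poisson interval). Tm7sf2 shares 532 exon bases with Vps51 on the same strand, a gene with a log2 ratio of −0.64, so reads may have been split between them. Net of the GC trend its log2 ratio was −0.80 and the adjusted p from the authors' DESeq2 values 0.536.

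Fdps, which makes farnesyl diphosphate for sterols and for protein prenylation, stood at 1612 in Control, 1605 in Aβ and 1138 in Aβ+DFMO. Its log2 ratio was −0.50 in the authors' deposited table (implied standard error 0.174, adjusted p = 0.0473). It shares 1124 exon bases with the predicted gene Gm43738 on the same strand. The log2 ratio with the GC trend taken out was −0.24 (adjusted p = 0.830, from the authors' DESeq2 values), and with all log2 ratios re-centred its adjusted p was 0.0593.

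Dhcr7, the reductase that completes cholesterol from its last precursor, stood at 893 in Control, 880 in Aβ and 574 in Aβ+DFMO. Its log2 ratio of −0.62 in the authors' deposited table had an adjusted p of 0.0579. It passed when genes with an Aβ mean under 200 were left out (adjusted p = 0.0372 by the authors' DESeq2 p-values). Net of the GC trend it was at −0.46 (adjusted p = 0.50 from the authors' DESeq2 values).

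Of the early enzymes, Hmgcs1 stood at 15247 in Control, 14136 in Aβ and 15702 in Aβ+DFMO. Its log2 ratio against Aβ was 0.15 in the authors' deposited table, with an interval from −0.03 to 0.34. The thiolase Acat2 had 77.0% of its Aβ mean, the mevalonate kinase Mvk 76.9%, the phosphomevalonate kinase Pmvk 80.3% and Mvd 62.2%, and none passed in the authors' deposited table. Mvk, Pmvk and Mvd rest on 43, 50 and 28 reads in Aβ+DFMO. The interval for Mvd ran from −1.37 to 0.00 on the log2 scale and that for Mvk from −0.97 to 0.21. The log2 ratio of Tm7sf2 therefore lies within the interval for Mvd. Net of the GC trend, log2 ratios were −0.08 for Hmgcs1, −0.36 for Acat2, 0.15 for Mvk, 0.08 for Pmvk and −0.17 for Mvd.

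In the middle of the branch, Idi1, Cyp51 and Sqle (41.9%, 46.2% and 49.3% G and C) lay near 0 as deposited. Fdft1 and Lss (51.8% and 52.2%) lay below it. Idi1 stood at 4108 in Control, 4088 in Aβ and 4224 in Aβ+DFMO, and Sqle, the squalene epoxidase that is a control point of the pathway, at 5359, 5316 and 5269. The lanosterol demethylase Cyp51 was at 98.9% of its Aβ mean (log2 ratio −0.02 in the authors' deposited table, interval from −0.24 to 0.21). The lanosterol synthase Lss was at 74.7% and the squalene synthase Fdft1 at 80.5% of the Aβ mean, and neither passed in the authors' deposited table (adjusted p = 0.108 and 0.160). Net of the GC trend, log2 ratios were −0.22 for Idi1, −0.01 for Sqle, −0.14 for Cyp51, −0.29 for Lss and −0.20 for Fdft1. Fdft1 shares 774 exon bases on the opposite strand with Ctsb, whose Aβ mean is 92240 units. Use of strand by the counter was not given in the sources used here.

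The later steps had values in both directions and none besides Tm7sf2 passed. Msmo1, which removes methyl groups from the sterol ring, stood at 5348 in Control, 5382 in Aβ and 6200 in Aβ+DFMO, and Hsd17b7, a ketoreductase of the same demethylation, at 1907, 1873 and 2169. These were the largest values above 0 among the members (log2 ratios of 0.20 and 0.21 in the authors' deposited table), and net of the GC trend they were 0.03 and 0.00. The decarboxylase Nsdhl was at 88.1% of its Aβ mean, the isomerase Ebp at 71.5% and the oxidase Sc5d at 105%.

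Of the 9 fatty acid enzymes 2 fell and none rose, beside the same 8.17%, with a median log2 ratio of −0.29 as deposited and −0.24 with the GC trend taken out. Scd2, which introduces the double bond of oleate and palmitoleate, stood at 64633 in Control, 60857 in Aβ and 42967 in Aβ+DFMO. This was 70.6% of the Aβ mean (log2 ratio −0.50 in the authors' deposited table, implied standard error 0.0908, adjusted p = 5.05e-06). Subtracting the GC trend left the log2 ratio of Scd2 at −0.49, with an adjusted p from the authors' DESeq2 values of 2.0e-05. It was the single member to pass in both settings.

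Fads1, a desaturase of polyunsaturated fatty acids, stood at 11189 in Control, 11474 in Aβ and 8935 in Aβ+DFMO. The log2 ratio was −0.36 in the authors' deposited table (implied standard error 0.0992, adjusted p = 0.0068) and −0.23 net of the GC trend (adjusted p = 0.357, from the authors' DESeq2 values). Its neighbour in the pathway, Fads2, stood at 14326, 14473 and 12408 and did not pass (log2 ratio −0.22 in the authors' deposited table, adjusted p = 0.125). Scd1, the stearoyl-CoA desaturase best known from liver and fat, stood at 8211, 7714 and 6584 (log2 ratio −0.23 in the authors' deposited table, adjusted p = 0.192). Net of the GC trend Scd1 moved away from 0, to −0.33 (adjusted p = 0.112 from the authors' DESeq2 values), and Fads2 to 0.03. The difference between Scd1 and Scd2 was not tested.

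The enzymes of de novo synthesis lay lower without passing. Fasn stood at 4040 in Control, 5141 in Aβ and 2847 in Aβ+DFMO, 55.4% of its Aβ mean. Its log2 ratio of −0.85 in the authors' deposited table was the second lowest of the members, with an interval from −1.57 to −0.14 and an adjusted p of 0.132. Subtracting the GC trend put Fasn at −0.41 (adjusted p = 0.899 from the authors' DESeq2 values), above Tm7sf2, Acaca, Scd2 and Dhcr7. Acaca stood at 1162, 1300 and 968, and the ATP citrate lyase Acly, which makes cytosolic acetyl-CoA, at 4263, 4418 and 3614 (adjusted p = 0.218 and 0.131 in the authors' deposited table). For the elongases, Elovl5 was at 105% and Elovl6 at 98.0% of the Aβ mean.

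**Figure D4:**
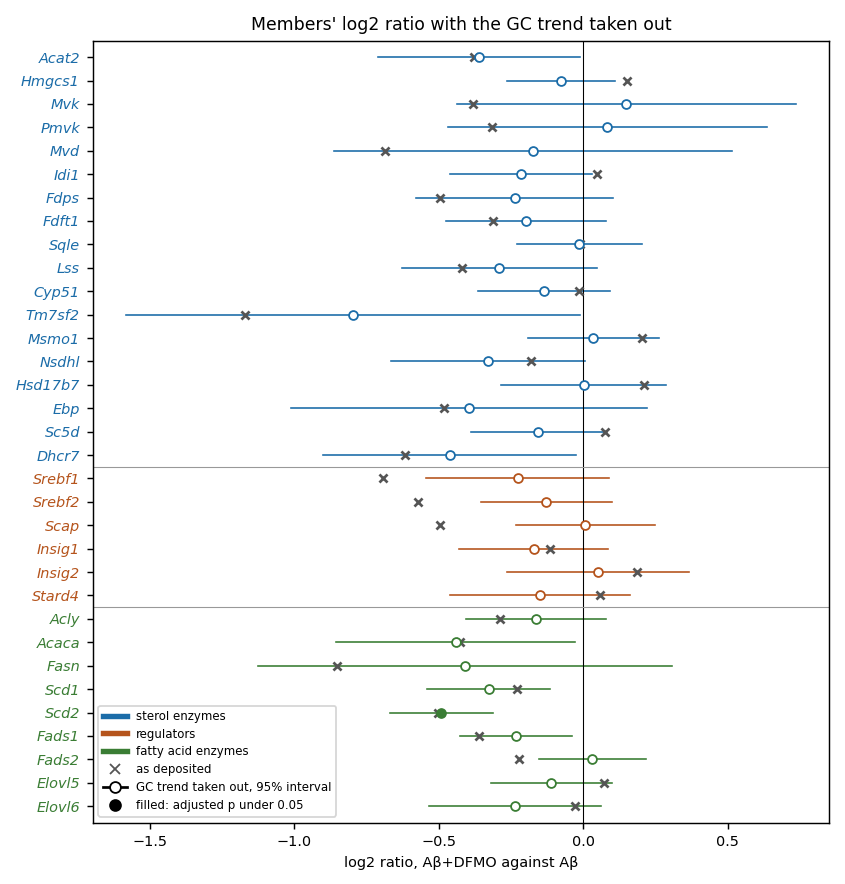
Log2 ratio of Aβ+DFMO against Aβ (x axis) of each member (y axis), as deposited (crosses) and with the GC trend of all genes taken out (circles with 95% intervals, filled for an adjusted p under 0.05). Scd2 is the single filled circle at −0.49, and the circles of Srebf1, Srebf2 and Scap lie at −0.23, −0.13 and 0.01 where their crosses lie at −0.69, −0.57 and −0.49.

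Set against Control, for which no test was used, the Aβ+DFMO library had a median log2 ratio of −0.28 over the 33 members, with 26 under 0. Tm7sf2 was lowest at −1.37, followed by Mvd at −0.71, Srebf1 at −0.67 and Dhcr7 at −0.64. Scd2 was at −0.59 and Srebf2 at −0.56. Fasn, which had its highest mean in Aβ, was at −0.51 against Control. These sizes and their order hold as deposited. Without the GC trend Tm7sf2 was at −1.0, Scd2 at −0.59 and Dhcr7 at −0.50, whereas Srebf1 was at −0.22, Mvd at −0.21, Srebf2 at −0.12 and Fasn at −0.07.

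Of 58 measured genes from a list of other enzymes, sensors and carriers of these pathways, none was called in Aβ against Control. The lowest p of the list there belonged to Ch25h, the cholesterol hydroxylase, with a log2 ratio of −1.44 in the authors' deposited table (means of 105 and 38.7, adjusted p = 0.155). In Aβ+DFMO against Aβ 2 of the 58 rose and 7 fell, a share near the 14.3% called among genes whose Aβ mean reached 200, so the count does not set the list apart. Those that rose were Pgrmc1, a haem-binding partner of sterol-metabolizing P450 enzymes (log2 ratio 0.35 in the authors' deposited table), and Lbr, a nuclear envelope protein with the same sterol reductase activity as Tm7sf2 (0.57 in the authors' deposited table, adjusted p = 0.0467). Lbr stood at 794 in Control, 729 in Aβ and 1079 in Aβ+DFMO, the opposite direction to Tm7sf2, and its transcript is 44.2% G and C.

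Among those that fell were Mid1ip1, which promotes acetyl-CoA carboxylase assembly (−0.65 in the authors' deposited table), the citrate carrier Slc25a1 (−0.55), the reductase of fatty acid elongation Tecr (−0.59) and the elongase Elovl1 (−0.59). Dgat2, which makes triglyceride, fell by 1.52 in the authors' deposited table to 74.5 units (10 reads), and Nr1h2, a nuclear receptor for oxysterols, fell by 0.75. None of these passed when the GC trend was subtracted. Acsl6, an acyl-CoA synthetase of brain, then was the single gene of the 58 called (−0.48, adjusted p = 0.0489 from the authors' DESeq2 values), against −0.30 in the authors' deposited table. No gene of the 58 was called when the GC trend was removed by lowess or together with a length trend.

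The cell type markers of the cultures moved in the same comparison. All 9 astrocyte markers were present, Gfap at 57495 and Slc1a3 at 38776 in Aβ, and their summed mean was 159749 in Control, 159441 in Aβ and 126787 in Aβ+DFMO. Oligodendrocyte lineage markers summed to 47032, 46413 and 25458. All 10 of them had log2 ratios under 0 in Aβ+DFMO against Aβ, 8 were called lower and the median was −1.05. Net of the GC trend all 10 still lay under 0, with a median of −0.76, and 3 were called lower. Of the 9 astrocyte markers Aldoc, Aldh1l1 and Gfap were called lower as deposited, and Aldoc, Aldh1l1 and Slc1a3 net of the GC trend. All 9 lay under 0 net of the trend, with a median of −0.33, beside −0.17 for the 33 members. For comparison, 8.17% of the genes whose Aβ mean reached 200 were called lower as deposited. Net of the GC trend, 0.704% of all genes with a GC value were. Oligodendrocytes also make cholesterol and unsaturated fatty acids. The part of this shift in the values of Scd2 and the other members was not tested, and in bulk RNA fewer cells of a type cannot be told apart from less RNA per cell.

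Microglial markers summed to 21575 in Control, 15191 in Aβ and 12902 in Aβ+DFMO. In Aβ against Control 4 of 8 fell in the authors' DESeq2 table, beside 0.176% of all genes called lower. No lipid synthesis gene was called there. The neuron list, with 5 of 6 markers measured, summed to 19713, 19228 and 22648, and its members went in different directions in Aβ+DFMO. Stmn2 rose from 6639 in Aβ to 9830, and Tubb3 fell from 1827 to 1066 (log2 ratio −0.78 in the authors' deposited table, adjusted p = 0.00216). Net of the GC trend Stmn2 was at 0.44 and Tubb3 at −0.33, and of the 2 only Stmn2 still passed. Fibroblast and mural markers summed to 75706, 77758 and 90820. Acta2 alone of these 5 rose, from 66644 to 81013, and the other 4 had log2 ratios from −0.20 to −0.12 in the authors' deposited table without passing. Net of the GC trend Acta2 was at 0.30, Col1a1 at 0.30, Pdgfrb at 0.17, Dcn at −0.44 and Lum at −0.38. Endothelial markers were low, with 2 of 4 measured and a summed mean of 200 units in Aβ.

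Promoter letters were looked up because the list is centred on SREBP. RefSeq promoters (GRCm38.p6, 250 bases before to 50 after the start) were found for 26 of the 33 members, 34 promoters in all. The sterol regulatory element letters TCACNCCAC were found on either strand in 1 of these 26 genes, Hmgcs1. That was 2.9% of the member promoters, beside 1.24% of all 32851 promoters. The related letters ATCACNCCA were found in Srebf2 alone among the members and in 0.87% of all promoters. Other forms of the element and bases outside this window were not searched, so genes without these letters may still hold one. Letters of the partner factors were common: CCAAT, bound by NF-Y, was in 64.7% of the member promoters and 37.4% of all, and GGGCGG, bound by Sp1, in 73.5% and 35.7%. These shares are descriptions without a test.
Hmgcs1: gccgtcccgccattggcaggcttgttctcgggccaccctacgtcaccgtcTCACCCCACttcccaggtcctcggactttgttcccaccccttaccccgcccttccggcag
Srebf2: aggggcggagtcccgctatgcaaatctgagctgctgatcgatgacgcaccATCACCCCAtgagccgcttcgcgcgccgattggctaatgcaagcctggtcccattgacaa
Capitals mark the sterol regulatory element letters, which begin 137 bases before the start in Hmgcs1 and 163 in Srebf2. The Hmgcs1 stretch lies at chr13:119690164-119690273 and the Srebf2 stretch at chr15:82147056-82147165, both upstream of the start on the plus strand. Of these 2 genes, Hmgcs1 was at 111% and Srebf2 at 67.2% of the Aβ mean in Aβ+DFMO as deposited. Net of the GC trend their log2 ratios were −0.08 and −0.13, both under 0.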

How the data were processed

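Gene values came from a table the authors deposited. Per the file headers it holds, for Aβ against Control and Aβ+DFMO against Aβ, p-values, Benjamini-Hochberg adjusted p-values, a ratio, its log2 and a least-squares mean signal of each group. The scaling of that normalized signal is not named in the deposited table. The submitters' processing notes name STAR 2.7.3a, Partek, DESeq2 and FastQC and the builds mm10 and GRCm39, without their roles. The counter, its annotation and any filter were not given in the sources used here. A deposited pathway table gives p-values and a ratio per gene set per the file headers, and another file reads per library, of which 1 library's could be matched to a sample and the authors' average was used beside it. No counts per library were used, so the edgeR fit planned for that case was not run.

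Computed here (Python 3.11.15, scipy 1.17.1, statsmodels 0.14.6) were implied standard errors (log2 ratio over the normal deviate of its two-sided p), intervals, and a GC trend. GC content came from the longest coding transcript of GENCODE (18459 of 18783 genes matched by symbol). The trend was the median log2 ratio in 20 GC bins of 11660 genes whose Aβ mean reached 200, interpolated and subtracted. New p-values used the implied standard errors and Benjamini-Hochberg adjustment over all genes with a GC value. The step was tried on simulated data built from this same trend and these standard errors. Such data cannot show whether taking the trend out is right for this library. Of low values under 27 reads in Aβ+DFMO, 80.2% were whole multiples of 7.45 units within 0.05 of a read. Members and lists were chosen with earlier results of these data known. All members could be named, and of other genes those called or lowest in p; 1 called gene is not reported here. Alternatives were the threshold, a low-value filter, re-centring and trends of GC and length.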

Additional observations from a re-analysis of the deposited data

How the results depend on the processing

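No paired analysis was possible because the deposited values per gene are group means, and for the same reason leaving out replicates and count tests were not run. In Aβ against Control 0 members were called under each of the 7 alternatives. In Aβ+DFMO against Aβ the count of 7 lower became 5 at an adjusted p under 0.01, 8 at 0.1 and with the low-value filter, 6 when re-centred, and 1 with the GC trend taken out by bins, by lowess or together with a length trend. The called log2 ratio of Scap turned to 0.0075 by bins and 0.0002 by lowess. Of members not called, 2 changed sign when re-centred, 8 by bins or lowess and 9 with length. Of the other pathway genes, 2 higher and 7 lower became 0 and 4 at 0.01, 0 and 1 with the GC trend taken out by bins, and 0 and 0 by lowess or with length. Against Control 19 members moved by more than 1 implied standard error (that of Aβ+DFMO against Aβ) with the GC trend taken out, while the median stayed within it. Depth limits Tm7sf2, Mvd, Ebp, Mvk and Pmvk most, at 19 to 50 reads in the Aβ+DFMO library.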

Other observations

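The authors' deposited pathway table called 171 of 242 gene sets (70.7%) at an adjusted p under 0.05 for Aβ+DFMO against Aβ. Steroid biosynthesis, a set of 19 genes, was not among them (ratio 0.955, adjusted p = 0.383 in the authors' deposited table), nor was Fatty acid elongation (27 genes, ratio 1.03, adjusted p = 0.298). Fatty acid biosynthesis (16 genes, ratio 0.896, adjusted p = 1.16e-05) and Cholesterol metabolism (36 genes, ratio 0.746, adjusted p = 7.68e-12) had ratios under 1 in the authors' deposited table, and Terpenoid backbone biosynthesis (22 genes, adjusted p = 9.51e-09) had a ratio of 1.05. Biosynthesis of unsaturated fatty acids (29 genes, ratio 0.852, adjusted p = 0.958 in the authors' deposited table) was not called, and Fatty acid metabolism (58 genes, ratio 0.890, adjusted p = 2.06e-08) was. In Aβ against Control none of these 7 sets passed in the authors' deposited table, with ratios from 0.970 to 1.04. The kind of test was not given in the sources used here. Which genes each set holds, and which of the members are among them, was not looked up. The ratio of Cholesterol metabolism therefore does not show whether the genes of cholesterol synthesis were lower.

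Lbr and Tm7sf2 encode proteins with the same sterol reductase activity and stood on opposite sides of 0 in Aβ+DFMO, at 0.57 and −1.17 in the authors' deposited table. Net of the GC trend they were at 0.37 and −0.80 and neither passed (adjusted p = 0.606 and 0.536 from the authors' DESeq2 values). The pair was chosen after its values were seen.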
